A study of Mus musculus with 8 samples.

Results

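The Ikaros family is a set of 5 zinc finger transcription factor genes, *Ikzf1* (Ikaros), *Ikzf2* (Helios), *Ikzf3* (Aiolos), *Ikzf4* (Eos) and *Ikzf5* (Pegasus). They were taken by symbol from the 23284 genes measured by RNA sequencing in naive CD4 T cells and in effector Th1, Th2 and Th17 cells, and each had 1 row in every table. All 5 were among the 11198 genes tested, those with a mean level of at least 1 FPKM over the 8 libraries. FPKM scales the fragments of a gene to its length and to sequencing depth, so levels of different genes can be compared within a library.

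All cells were from DO11.10 Tg mice. Their transgenic TCR recognises a peptide of OVA, and the sort described used CD44 and CD62L, not this TCR. There were 4 groups with 2 libraries each, numbered as replicates 1 and 2. Naive cells were splenic CD4 T cells taken by cell sorting as CD44low and CD62Lhi, without culture. Effector cells grew for 6 days from such cells, with OVA peptide and irradiated splenocytes from which T cells had been removed. Th1 cultures held IL-2 (30 U/ml), IL-12 (100 U/ml) and anti-IL-4 Ab (1 μg/ml). Th2 cultures held IL-2 (30 U/ml), IL-4 (100 U/ml) and anti-IFNγ Ab (10 μg/ml). Th17 cultures held IL-6, IL-1β and IL-23 (10 ng/ml each) and both antibodies (10 μg/ml each), with no IL-2 named. The methods give a single age range for all mice of the study and no age for each group. The labels do not say whether the 2 libraries of a group came from separate cultures, so the p-values measure the spread between these libraries only.

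Ikaros family proteins bind DNA through zinc fingers near the N terminus and pair with each other through a second set of fingers at the C terminus. Ikaros, Helios, Aiolos and Eos recognise sites with a GGGAA core, whereas Pegasus is the most divergent member. The proteins lack enzymatic activity and act through the complexes they bring to DNA, above all the nucleosome remodelling and deacetylase complex NuRD. Ikaros is needed for lymphocyte development, Aiolos is known from B cells and Th17 cells, and Helios and Eos are best known from regulatory T cells, in which Eos works with Foxp3.

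The coding sequences of the C-terminal fingers show how alike the members are and where reads could be confused. A 90-base stretch was placed around the longest run of identical bases between *Ikzf1* and *Ikzf3*, which was 26 bases, and the best ungapped match was found in each other member. Each stretch lies within 1 coding exon in GENCODE vM21 (GRCm38), read on the coding strand. Capitals mark the 47 bases that are identical in all 5.
Ikzf1, chr11:11769450-11769539, plus strand: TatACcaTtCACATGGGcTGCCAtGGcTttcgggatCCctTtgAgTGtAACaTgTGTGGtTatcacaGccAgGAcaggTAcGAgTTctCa
Ikzf2, chr1:69538804-69538893, minus strand: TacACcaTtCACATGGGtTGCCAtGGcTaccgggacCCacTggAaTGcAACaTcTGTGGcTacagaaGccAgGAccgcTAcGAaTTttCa
Ikzf3, chr11:98467028-98467117, minus strand: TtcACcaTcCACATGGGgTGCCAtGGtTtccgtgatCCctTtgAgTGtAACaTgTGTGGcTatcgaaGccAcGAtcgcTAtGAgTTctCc
Ikzf4, chr10:128634084-128634173, minus strand: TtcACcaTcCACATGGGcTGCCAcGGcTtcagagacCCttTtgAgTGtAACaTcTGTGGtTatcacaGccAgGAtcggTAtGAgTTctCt
Ikzf5, chr7:131391673-131391762, minus strand: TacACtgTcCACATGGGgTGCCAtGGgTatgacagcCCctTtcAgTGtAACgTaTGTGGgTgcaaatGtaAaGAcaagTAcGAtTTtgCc
Over this stretch, identity to *Ikzf1* was 77.8% for *Ikzf2*, 82.2% for *Ikzf3*, 84.4% for *Ikzf4* and 66.7% for *Ikzf5*. No 50-base word of any member's annotated transcripts occurred in those of another member. An exact 50-base read of these transcripts therefore belongs to 1 member only. Reads aligned with mismatches, or to transcripts of another annotation, were not tested.

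Overlap with other genes touched mainly *Ikzf5*. In GENCODE vM21, 4652 of its 5721 exon bases (81.3%) also lie in exons of *Pstk* transcripts on the opposite strand, and the sources disagree on whether the library kit kept the strand. *Pstk* encodes phosphoseryl-tRNA kinase. In the authors' files, however, the loci of these genes do not overlap, and *Pstk* had 14.7 and 11.0 FPKM in the naive libraries and 10.5 to 13.9 FPKM in the 6 effector libraries. The part of such reads in the level of *Ikzf5* was not tested. The other members had at most 1.24% of their exon bases in another gene.

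The libraries matched their labels by the markers examined. The T cell genes *Cd3e*, *Cd3d*, *Cd3g*, *Cd4* and *Cd28* summed to 1564 and 1630 FPKM in naive cells and to 1037 to 1461 FPKM in effector cells. By group means, *Ifng* reached 708 FPKM in Th1 and at most 1.31 FPKM elsewhere, *Il13* 147 FPKM in Th2 and at most 9.54 FPKM elsewhere, and *Il17f* 996 FPKM in Th17 and at most 0.675 FPKM elsewhere. Of other cell types, 6 B cell genes summed to 7.19 to 9.13 FPKM in naive, 2.50 to 3.35 in Th1, 7.60 to 10.4 in Th2 and 11.8 to 12.9 FPKM in Th17 cells, and 6 myeloid genes to 11.9 to 12.5 FPKM in naive, 8.07 to 8.76 in Th1, 17.1 to 25.5 in Th2 and 18.1 to 18.2 FPKM in Th17 cells. The CD8 genes *Cd8a* and *Cd8b1* summed to 54.6 and 93.4 FPKM in naive cells and 8.94 to 12.9 FPKM in effector cells, nearly all of it *Cd8b1*, and the NK cell genes *Ncr1* and *Klrb1c* to 0.175 and 0.318 FPKM in naive cells and 0.0480 to 0.625 FPKM in effector cells. The neutrophil precursor genes *Mpo* and *Elane* were seen mainly in replicate 1 of the effector groups, where they summed to 6.17 to 7.48 FPKM, against at most 0.434 FPKM in the other 5 libraries. The part of such cells in the levels of the family was not tested. In such bulk samples, fewer cells of a type and less RNA per cell cannot be told apart.

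The first question was how the family differs between naive and effector cells. In each of the 3 effector subsets, 1 of the 5 members was higher than in naive cells, 3 were lower and 1 did not pass the test. *Ikzf4* rose and *Ikzf1* and *Ikzf5* fell in all 3 subsets, whereas *Ikzf3* fell in Th1 and Th17 cells and *Ikzf2* fell in Th2 cells. The test was limma on log2(FPKM + 1) with Benjamini-Hochberg adjustment over all genes tested and a threshold of 0.05. It called 33.8% of all genes higher and 33.5% lower in Th1 than in naive cells, 31.8% higher and 38.7% lower in Th2, and 37.5% higher and 29.8% lower in Th17, so that a gene past the threshold is common here. The median difference of the 5 members was -1.03, -1.05 and -1.07 in Th1, Th2 and Th17, beside -0.01, -0.11 and 0.08 over all genes tested. This median is the value of *Ikzf5* in each subset. The members ran from -1.91 to 2.06 in Th1, from -1.78 to 2.52 in Th2 and from -2.51 to 2.92 in Th17. The 3 comparisons share the naive libraries.

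**Figure D1:**
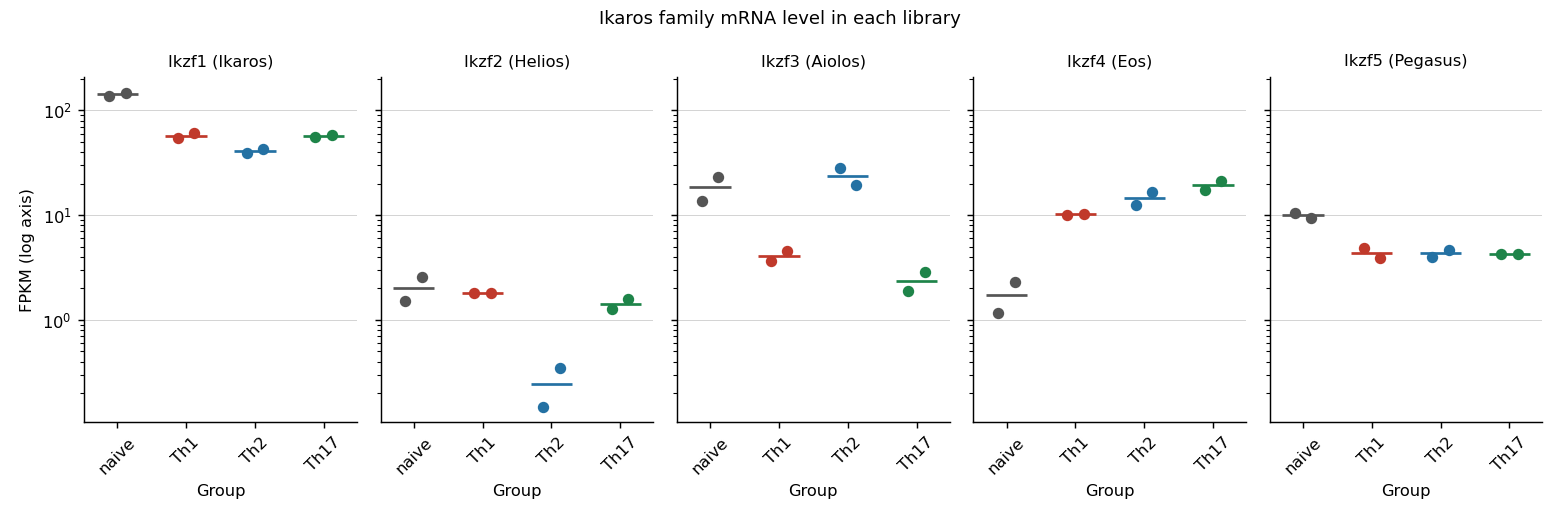
The panels plot the level of each member in FPKM on a log axis, with 1 point per library and a line at the mean of the 2 libraries of a group. *Ikzf1* and *Ikzf5* were highest in the naive libraries, *Ikzf4* was lowest there, *Ikzf3* was lowest in Th1 and Th17, and *Ikzf2* was lowest in Th2.

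*Ikzf1*, on chromosome 11 of mm10 from 11686213 to 11772926, was the most abundant member in every library. The naive libraries had 139 and 147 FPKM, the Th1 libraries 54.1 and 60.5, the Th2 libraries 39.1 and 42.7 and the Th17 libraries 55.1 and 57.7 FPKM. Both naive libraries lay above all 6 effector libraries, both Th2 libraries lay below the rest, and Th1 and Th17 overlapped. The mean was 143 ± 5.95 FPKM in naive cells and 57.3 ± 4.51, 40.9 ± 2.55 and 56.4 ± 1.86 FPKM in Th1, Th2 and Th17 (SD, n = 2). On the log2(FPKM + 1) scale the differences from naive cells were -1.30, -1.78 and -1.33 (standard error 0.10, adjusted p = 3.51e-05, 6.42e-06 and 2.87e-05, limma), which is a mean FPKM 2.50, 3.49 and 2.53 times lower. In naive cells *Ikzf1* lay above 96.5% of the genes tested, and in effector cells above 85% to 88.5% of them.

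*Ikzf5*, on chromosome 7 from 131388649 to 131410478, also fell in all 3 subsets, by a smaller and nearly equal amount. The naive libraries had 10.5 and 9.48 FPKM, the Th1 libraries 4.89 and 3.91, the Th2 libraries 4.02 and 4.61 and both Th17 libraries 4.24 FPKM. Both naive libraries were above all effector libraries, and the 3 effector groups overlapped. The differences from naive cells were -1.03, -1.05 and -1.07 on the log2(FPKM + 1) scale (standard error 0.12, adjusted p = 0.000265, 0.000213 and 0.00021, limma). The mean FPKM was 2.27, 2.32 and 2.36 times lower than in naive cells.

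*Ikzf4*, on chromosome 10 from 128632415 to 128645993, moved the other way. Naive libraries had 1.18 and 2.30 FPKM, Th1 libraries 10.1 and 10.2, Th2 libraries 12.4 and 16.6 and Th17 libraries 17.4 and 21.2 FPKM. No effector library was as low as either naive library, and the effector groups did not overlap each other, in the order Th1, Th2, Th17. The differences from naive cells were 2.06, 2.52 and 2.92 on the log2(FPKM + 1) scale (standard error 0.22, adjusted p = 0.000174, 5.33e-05 and 2.76e-05, limma), a mean FPKM 5.84, 8.34 and 11.1 times higher. The intervals implied 91 and 177 fragments in the naive libraries, so the folds rest on a low level there. *Ikzf4* thus lay above 15.9% of the genes tested in naive cells and above 65.8% in Th17 cells.

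*Foxp3*, the lineage factor of regulatory T cells with which Eos acts, did not rise with *Ikzf4*. Naive libraries had 6.68 and 12.8 FPKM of it, Th1 libraries 0.874 and 1.13, Th2 libraries 0.423 and 0.541 and Th17 libraries 3.03 and 5.76 FPKM. All effector libraries were below both naive libraries, with differences of -2.37, -2.80 and -0.98 (adjusted p = 0.000576, 0.00022 and 0.031, limma). *Gpr83*, another regulatory T cell gene, had 3.11 and 5.51 FPKM in naive cells and fell in Th1 cells (difference -2.09, adjusted p = 0.000144, limma). Its mean level was 2.74 FPKM in Th2 and 3.40 FPKM in Th17, where the differences of -0.47 and -0.24 did not pass (adjusted p = 0.0883 and 0.363, limma). Among the other genes of that marker list, *Il2ra* and *Ctla4*, which activated T cells also express, rose in all 3 subsets, *Lrrc32* rose in all 3, and *Nrp1* rose in Th1 and Th17 and fell in Th2. The whole list of 6 summed to 22.3 and 33.8 FPKM in naive cells and to 823 to 1087 FPKM in effector cells, none of its genes being at 0 in both libraries of a group. The part of regulatory T cells in the levels of *Ikzf2* and *Ikzf4* was not tested.

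*Ikzf3*, on chromosome 11 from 98464693 to 98546031, separated the effector subsets. The naive libraries had 13.8 and 23.3 FPKM, the Th1 libraries 3.61 and 4.51, the Th2 libraries 28.3 and 19.4 and the Th17 libraries 1.89 and 2.85 FPKM. Th1 and Th17 libraries were all below the naive and Th2 libraries, and the naive and Th2 ranges overlapped. *Ikzf3* fell in Th1 and Th17, with log2(FPKM + 1) differences of -1.91 and -2.51 (standard error 0.28, adjusted p = 0.000887 and 0.000217, limma), a mean FPKM 4.57 and 7.83 times lower than in naive cells. In Th2 the difference from naive cells was 0.37 with a 95% interval of -0.31 to 1.04 (adjusted p = 0.282, limma). Replicate 2 was 1.69 times replicate 1 in naive cells and 0.688 times replicate 1 in Th2, so these means are less certain than those of *Ikzf1*.

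*Ikzf2*, on chromosome 1 from 69531210 to 69685960, was the least abundant member in all effector libraries. The naive libraries had 1.53 and 2.55 FPKM, the Th1 libraries 1.82 and 1.80, the Th2 libraries 0.149 and 0.346 and the Th17 libraries 1.28 and 1.57 FPKM. The Th2 libraries were below all others, with 42 and 96 implied fragments, and the naive range overlapped that of Th1 and of Th17. The Th2 difference from naive cells was -1.27 on the log2(FPKM + 1) scale (standard error 0.18, adjusted p = 0.000637, limma), and mean FPKM was 8.24 times lower. This fold was 13.7 without Th2 replicate 2 and 5.89 without Th2 replicate 1. It was 10.3 without naive replicate 1 and 6.18 without naive replicate 2. The differences in Th1 and Th17 were -0.09 (95% interval -0.52 to 0.34) and -0.31 (-0.74 to 0.12), with adjusted p = 0.667 and 0.172 by limma. After quantile normalization both passed, at -0.52 (adjusted p = 0.0177) and -0.99 (adjusted p = 0.000909), and without naive replicate 1 the Th17 difference passed at -0.55 (adjusted p = 0.0205).

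The composition of the family changed with these levels. Summed over the 5 genes, the naive level was 175 ± 13.5 FPKM and the effector levels were 77.7 ± 4.45 (Th1), 83.8 ± 0.215 (Th2) and 83.8 ± 5.42 FPKM (Th17) (SD, n = 2). The sums of the 3 effector groups lay within 74.6 to 87.6 FPKM, below both naive libraries. *Ikzf1* made up 81.7% ± 2.89 of the naive sum, 73.7% ± 1.58 of the Th1, 48.8% ± 3.16 of the Th2 and 67.4% ± 2.15 of the Th17 sum. The second place differed between groups. It was held by *Ikzf3* in naive cells (10.5% ± 3.05) and in Th2 cells (28.5% ± 7.37), and by *Ikzf4* in Th1 cells (13.1% ± 0.719) and Th17 cells (23.0% ± 1.72). *Ikzf4* was 0.978% ± 0.379 of the naive sum and *Ikzf3* 2.81% ± 0.633 of the Th17 sum, while *Ikzf5* stayed between 4.79% and 6.56% in all 8 libraries. These shares are ratios within a library and do not move with its scaling.

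**Figure D2:**
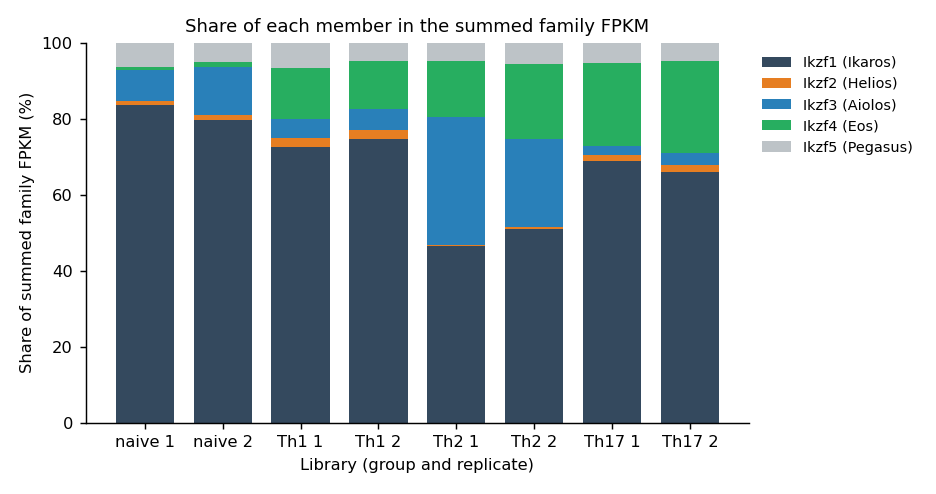
Each bar is 1 library and shows the share of each member, in percent, of the FPKM summed over the 5 members. *Ikzf1* fills 79.6% to 83.7% of the naive bars and 46.6% to 51.0% of the Th2 bars, in which *Ikzf3* takes 23.2% to 33.7%.

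The second question was how the effector subsets differ from one another. Th2 cells stood apart, with less *Ikzf1* and *Ikzf2* and more *Ikzf3* than both Th1 and Th17 cells. Between Th1 and Th17 cells, 1 of the 5 members passed the test, *Ikzf4*, which was lower in Th1. Over all genes, 27.4% were called higher and 16.9% lower in Th1 than in Th2, 31.7% higher and 12% lower in Th17 than in Th2, and 9.17% higher and 16% lower in Th1 than in Th17. The share of higher among all calls, 61.8%, 72.6% and 36.5% in these comparisons, moved to 52.8%, 53.3% and 48.1% with median scaling of the libraries and to 50.9%, 50.7% and 49.7% with quantile normalization. The median difference over all genes moved by more than 0.1 with median scaling in 2 comparisons, from 0.18 to 0.02 between Th17 and Th2 and from -0.11 to 0.0016 between Th2 and naive cells. Quantile normalization moved it from -0.01 to -0.13 between Th1 and naive cells and from 0.08 to -0.12 between Th17 and naive cells, where the share of higher calls went from 55.7% to 44.2%. No change of a member from naive cells that passed changed its direction under these scalings.

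*Ikzf3* showed the widest gap on the log2(FPKM + 1) scale. Th1 minus Th2 was -2.28 on the log2(FPKM + 1) scale and Th17 minus Th2 was -2.88 (standard error 0.28, adjusted p by limma 0.000939 and 0.00047), mean FPKM in Th2 being 5.88 and 10.1 times higher. Both Th2 libraries were above all Th1 and Th17 libraries. Th1 was above Th17 in every library, but the difference of 0.60 had a 95% interval of -0.08 to 1.27 (adjusted p = 0.185, limma).

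*Ikzf2* was higher in Th1 than in Th2 by 1.17 (standard error 0.18, adjusted p = 0.00234, limma) and higher in Th17 than in Th2 by 0.96 (adjusted p = 0.00607). At the low level of this gene a difference on the log2(FPKM + 1) scale understates the change, and mean FPKM was 7.30 and 5.77 times higher than in Th2. Between Th1 and Th2 this fold was wider than the 5.88 times of *Ikzf3*. Without Th2 replicate 2, which has the higher of the Th2 levels, the *Ikzf2* folds were 12.1 and 9.57. Without Th2 replicate 1 they were 5.225 and 4.125. Th1 exceeded Th17 by 0.21, with a 95% interval of -0.22 to 0.64 (adjusted p = 0.456, limma).

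*Ikzf1* differed less. It was higher in Th1 than in Th2 by 0.48 (95% interval 0.24 to 0.72, adjusted p = 0.00905, limma) and higher in Th17 than in Th2 by 0.46 (0.22 to 0.70, adjusted p = 0.0114), a mean FPKM 1.40 and 1.38 times that of Th2. The Th17 difference was 0.27 with median scaling (adjusted p = 0.0512), and its adjusted p was 0.0515 without Th2 replicate 1 and 0.0646 without Th17 replicate 2. The Th1 difference had an adjusted p of 0.0626 without Th1 replicate 2. Between Th1 and Th17 the difference was 0.02 (95% interval -0.22 to 0.26, adjusted p = 0.923, limma).

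*Ikzf4* passed between Th1 and Th17, where Th1 minus Th17 was -0.86 (standard error 0.22 and adjusted p = 0.03 by limma), mean FPKM being 1.90 times higher in Th17. Without any 1 of the 4 libraries of these groups the difference was -0.99 to -0.72 and no longer passed, with adjusted p = 0.0747 to 0.168. Th1 was lower than Th2 by -0.46 (95% interval -0.99 to 0.06, adjusted p = 0.135, limma). With the replicate number as a block, this difference passed (adjusted p = 0.0348), as it did after quantile normalization (-0.55, adjusted p = 0.0462). Th17 was above Th2 by 0.40, with an interval of -0.13 to 0.92 (adjusted p = 0.185, limma).

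*Ikzf5* showed no difference past the threshold between effector subsets. The differences were 0.02 between Th1 and Th2, -0.02 between Th17 and Th2, and 0.04 between Th1 and Th17, with adjusted p = 0.871 to 0.917 (limma). The 95% intervals of these 3 differences together ran from -0.30 to 0.32.

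**Figure D3:**
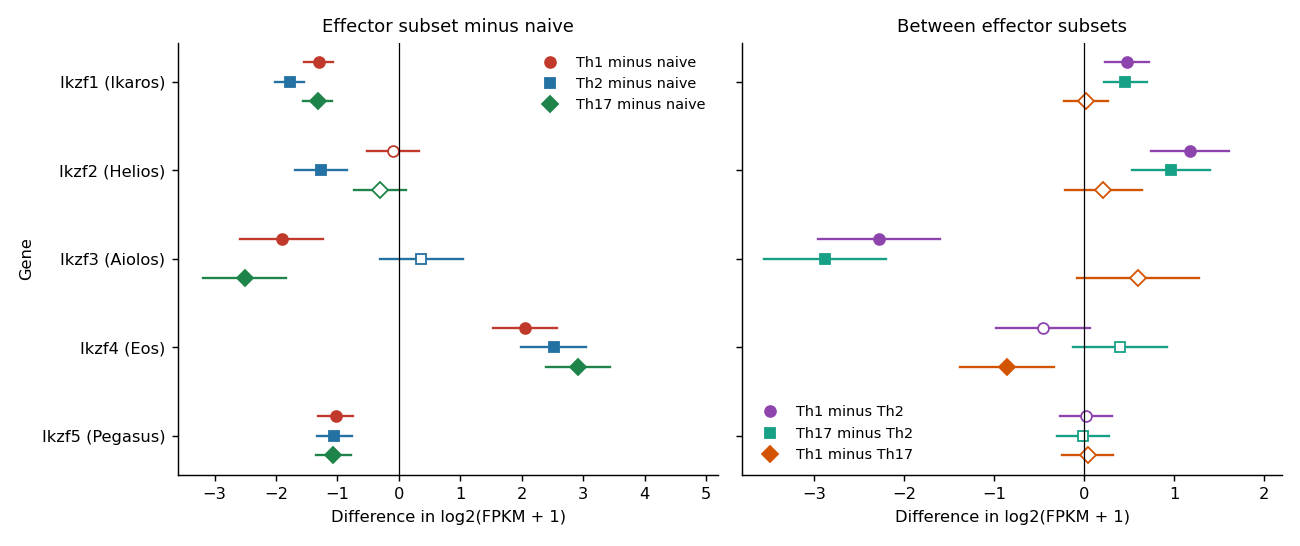
Points are differences in log2(FPKM + 1) and lines are 95% intervals, with effector subset minus naive on the left and pairs of effector subsets on the right. Filled points passed the threshold of 0.05 on the adjusted p (limma) and open points did not. *Ikzf4* was the only member with positive differences past the threshold on the left, and *Ikzf3* had the most negative values on the right, -2.28 and -2.88.

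The partner genes of the family were then examined, from lists of the complexes through which Ikaros proteins act. Of 15 NuRD subunit genes, 14 were tested. In Th1, 5 were higher and 1 lower than in naive cells, in Th2 3 were higher and 5 lower, and in Th17 6 were higher and 1 lower. Higher were thus 35.7%, 21.4% and 42.9% of the list, against 33.8%, 31.8% and 37.5% of all genes tested, and lower were 7.14%, 35.7% and 7.14%, against 33.5%, 38.7% and 29.8%. The same shares of all genes are the background of the lists that follow. The list's median difference was 0.06, -0.21 and 0.18, beside medians of -0.01, -0.11 and 0.08 over all genes tested. *Chd5*, a helicase gene of the nervous system, had at most 0.284 FPKM and was not tested.

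The 2 main NuRD helicases of T cells differed. *Chd3* (Mi-2α) stood at 75.2 and 134 FPKM in the naive libraries, 23.3 and 35.7 in those of Th1, 13.9 and 17.8 in those of Th2, and 11.0 and 16.4 FPKM in those of Th17. All effector libraries lay below both naive libraries, with differences of -1.76, -2.60 and -2.81 on the log2(FPKM + 1) scale (adjusted p = 0.00287, 0.000375 and 0.000273, limma). *Chd4* (Mi-2β), the partner best known for Ikaros in T cells, had mean levels of 66.7 FPKM in naive cells and 75.7, 55.2 and 92.1 FPKM in Th1, Th2 and Th17 and passed in none of the 3 comparisons (adjusted p = 0.451, 0.31 and 0.0832, limma). It is outside the naming rule and was added after its values were seen. Among the other subunits, the histone chaperone gene *Rbbp7* rose in all 3 subsets (differences 1.09, 0.86 and 1.15), as did *Cdk2ap1* (0.95, 0.49 and 0.83). *Mbd2*, which encodes the subunit that reads methylated DNA, rose in Th1 and Th17 (0.58 and 0.74) and had a difference of -0.02 in Th2 (adjusted p = 0.857, limma).

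Of 8 other corepressor genes listed, 7 were tested, with 1 higher and 2 lower than in naive cells in Th1, 1 higher and 2 lower in Th2, and 2 higher and 2 lower in Th17. The medians were -0.33, -0.18 and -0.30. The paired scaffold genes *Sin3a* and *Sin3b* went opposite ways in all 3 subsets, with differences of -0.60, -0.37 and -0.48 for *Sin3a* and of 0.71, 0.53 and 0.44 for *Sin3b* (Th1, Th2, Th17). *Ctbp1*, a corepressor that Ikaros and Eos can bind, fell in all 3 (-0.33, -0.52 and -0.32), and the deacetylase gene *Hdac3* rose in Th17 (0.46, adjusted p = 0.0127, limma). *Ctbp2* had at most 0.51 FPKM and was not tested.

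BAF remodelling genes, whose product complex Ikaros can also bind, were split. All 5 listed were tested, with 2 higher and 2 lower in Th1, 1 higher and 2 lower in Th2, and 2 higher and 2 lower in Th17, and medians of 0.12, -0.15 and 0.10. *Arid1a*, the DNA-binding subunit, fell in all 3 subsets (differences -1.17, -1.75 and -1.47 in Th1, Th2 and Th17). *Smarca2*, which encodes an ATPase subunit, fell likewise (-1.24, -1.35 and -1.73). The core subunit gene *Smarcc1* rose by 0.66, 0.47 and 0.92, and *Smarcb1* rose in Th1 and Th17 by 0.68 and 0.73.

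The cereblon ubiquitin ligase is known, in human cells, for degrading Ikaros and Aiolos when bound by thalidomide analogs. All 5 of its genes were tested, with 1 higher and 1 lower in Th1, 2 higher and 2 lower in Th2, and 2 higher and 1 lower in Th17, and medians of -0.13, -0.06 and -0.12. *Crbn*, the substrate receptor, stood at 29.0 and 25.0 FPKM in the naive libraries, 13.0 and 11.8 in those of Th1, 18.8 and 20.3 in those of Th2, and 16.5 and 13.5 FPKM in those of Th17. It was below the naive range in all 6 effector libraries, with differences of -1.06, -0.44 and -0.81 (adjusted p = 0.000329, 0.0183 and 0.00121, limma). The intervals of *Crbn* implied only 12 and 10 fragments in the Th1 libraries and 14 in Th17 replicate 1. The other libraries had 893 to 2121, so the Th1 and Th17 levels are less certain. The adaptor *Ddb1* moved up, from 44.9 and 56.0 FPKM in naive cells to 160.1 and 175 FPKM in Th2, where the difference was 1.72 (adjusted p = 6.91e-05, limma). It also rose by 0.94 in Th1 and by 1.42 in Th17. *Cul4a* rose in Th2 and Th17 (0.39 and 0.47), and *Rbx1* fell in Th2 (-0.45, adjusted p = 0.0168, limma).

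**Figure D4:**
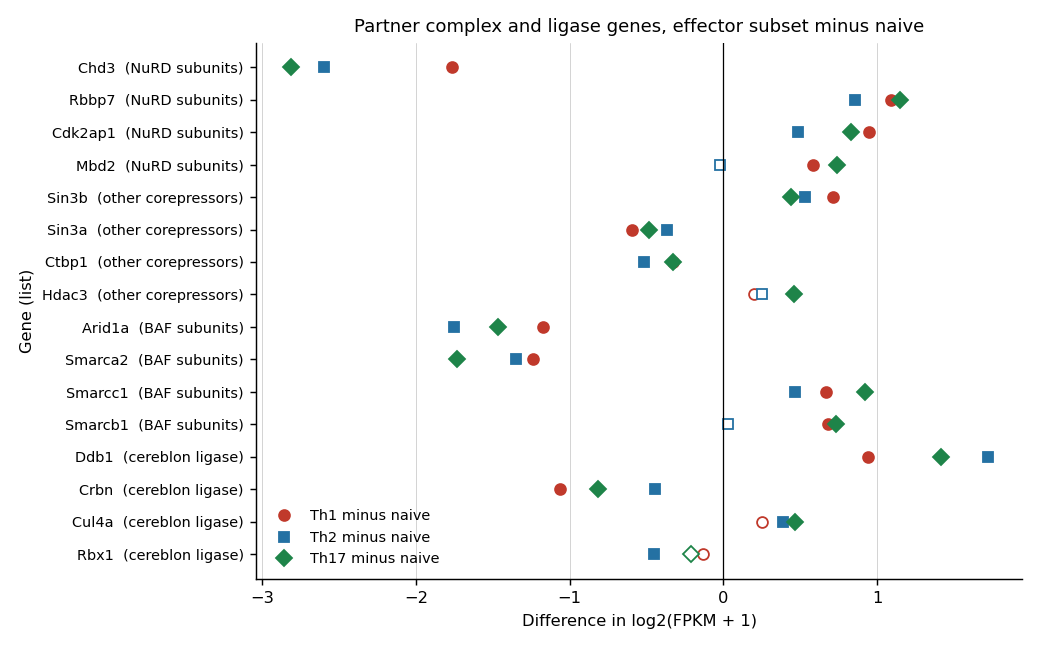
Each row is a gene from the lists of partner complexes and of the cereblon ligase, and symbols give its difference in log2(FPKM + 1) from naive cells in Th1, Th2 and Th17. Filled symbols passed the threshold of 0.05 on the adjusted p (limma). *Chd3* lies farthest to the left, at -1.76 to -2.81, and *Ddb1* in Th2 farthest to the right, at 1.72.

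Of 16 genes tied to the family in helper T cells, 13 were tested. Compared with naive cells, 5 were higher and 4 lower in Th1, 7 higher and 4 lower in Th2, and 6 higher and 3 lower in Th17. That is 38.5%, 53.8% and 46.2% higher (33.8%, 31.8% and 37.5% over all genes) and 30.8%, 30.8% and 23.1% lower (33.5%, 38.7% and 29.8% over all genes). The medians were 0.04, 0.49 and 0.46, beside -0.01, -0.11 and 0.08 over all genes. *Il2*, a cytokine gene that Aiolos and Ikaros can repress, had at most 0.795 FPKM in any library and was not tested, nor was the Notch target *Hes1*, at most 0.176 FPKM. *Dtx1*, a Notch target that encodes a ubiquitin ligase, had 41.8 and 56.9 FPKM in naive cells and 0.0926 to 0.437 FPKM in the 6 effector libraries. Its differences were -5.49, -5.30 and -5.16 in Th1, Th2 and Th17 (adjusted p = 4.66e-07, 4.38e-07 and 4.99e-07, limma).

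*Tbx21*, the Th1 factor gene, had 45.1 and 50.7 FPKM in Th1 and at most 1.66 FPKM in the other libraries. *Prdm1*, which encodes Blimp-1, had 19.8 and 25.2 FPKM in Th1, 12.9 and 13.0 in Th2, 3.17 and 3.12 in Th17, and 1.78 and 2.28 FPKM in naive cells, and was higher than in naive cells in all 3 subsets (differences 2.95, 2.21 and 0.46). *Il10* was highest in Th2, with 159.8 and 116 FPKM, followed by 43.7 and 38.1 FPKM in Th1, and at most 0.901 FPKM elsewhere. The Th1 minus Th2 difference of *Il10* was -1.71 (adjusted p = 0.000231, limma).

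Finally, for each member the genes most like it were ranked and up to 3 are named, by Pearson's r over the 8 libraries on the log2(FPKM + 1) scale, among 5407 genes whose group means spanned at least 1. The libraries fall into naive and effector clusters and share their depth and cultures, so r is a description and carries no p. *Ikzf1* was most like *Ikbke* (r = 0.998), *Trim11* (0.998) and *Arhgap25* (0.997), and *Ikzf5* was most like *Dcun1d4* (0.995), *Smad4* (0.992) and *Zmym5* (0.989). Among the genes most like *Ikzf4* were *Myo10* (0.996) and *Clip2* (0.994). *Ikzf2* was most like *Il1rl2* (0.983), *Dock9* (0.982) and *Il18bp* (0.977). *Ikzf3* was most like *Fbxo17* (0.982), *0610030E20Rik* (0.961) and *Snord15a* (0.960), the last a small RNA gene listed at 0 in all Th1 and Th17 libraries. *Fbxo17*, for example, stood at 43.2 and 43.6 FPKM in the naive libraries, 13.0 and 14.7 in those of Th1, 47.8 and 38.4 in those of Th2, and 10.0 and 12.2 FPKM in those of Th17, with the same separation of Th2 from Th1 and Th17 as *Ikzf3*.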

How the data were processed

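RNA sequencing of 8 libraries was re-analysed, grouped by the sample labels. Per the labels and methods, the authors aligned 50-base reads to mm10 with Bowtie 0.12.8 and TopHat 1.3.2 and deposited FPKM per gene from Cufflinks 2.0.2, with confidence intervals. The annotation is not given in the sources used here. The labels name a stranded library kit and the methods one without strand. The tables give no counts. Fragments implied by the intervals summed to 14463466 to 21058286 per library, of which 0.0351% to 0.0981% were in the family, and they cover counting error only.

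Rows sharing a symbol were summed. Values were fitted as log2(FPKM + 1) with limma 3.58.1 (R 4.3.3, lmFit and eBayes with a trend), 1 model with 4 group means over all 8 libraries, after removal of genes whose mean FPKM was under 1. Tests were two-sided, with Benjamini-Hochberg adjustment and a threshold of 0.05. The model was tested on simulated data with independent noise, no shared replicate effect and few changed genes. The real data differ in these respects, so that test does not cover them. Figures and tables used Python 3.11.15, pandas 2.3.3, numpy 2.4.6 and matplotlib 3.10.9. Sequences came from GENCODE vM21 transcripts, using the longest coding transcript of each member.

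Same-numbered replicates deviated together in all 6 pairs of groups (correlations of replicate differences across genes 0.138 to 0.294), so the replicate number was also fitted as a block. The numbers come from the labels, which do not say that they mark a shared culture. Members and lists were chosen with earlier results of these data known. The rule named all members, at most 4 genes past the threshold per list with the largest difference from naive cells, *Foxp3*, *Il2*, *Tbx21*, *Prdm1*, *Hes1* and *Dtx1*, the 3 most alike genes per member, and the cell type markers. One gene that the rule selected is not reported here. Alternatives were a pseudocount of 0.1, no filter, the highest row per symbol, median scaling, quantile normalization, only the compared groups, no trend, the replicate block and each library left out. Added after seeing the data were voom on implied fragments and a limit to genes with status OK in every library.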

Additional observations from a re-analysis of the deposited data

Results flagged for a closer look

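4 of the 5 members differed between effector subsets in their change from naive cells, by the test of the difference between the subsets themselves (limma, Benjamini-Hochberg adjustment). For each member, the largest difference past the threshold is given. Over all genes, 27.4% were called higher and 16.9% lower in Th1 than in Th2. The shares were 31.7% and 12% in Th17 against Th2, and 9.17% and 16% in Th1 against Th17. These are shares of single comparisons. The share of all genes called in any of these comparisons was not determined, so the count of 4 members has no matching background. *Ikzf1* fell more in Th2 than in Th1, by 0.48 on the log2(FPKM + 1) scale (adjusted p = 0.00905). *Ikzf2* fell in Th2 and was 1.17 higher in Th1 than in Th2 (adjusted p = 0.00234). *Ikzf3* fell in Th17 and was lower there than in Th2 by -2.88 (adjusted p = 0.00047). *Ikzf4* rose less in Th1 than in Th17, the difference being -0.86 (adjusted p = 0.03). That *Ikzf4* call was lost with a pseudocount of 0.1 (adjusted p = 0.0648, limma) and without a filter (adjusted p = 0.107, limma). With each library left out, this difference was -0.99 to -0.72. In each of these cases the libraries of the subsets compared did not overlap. The share of all genes without such overlap was not determined, so this adds no support to the calls.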

How the results depend on the processing

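Over the 10 other alternatives, 288 of 300 member values kept their direction and side of the threshold, 4 no longer passed, 4 newly passed and 4 changed sign. A member's difference could change only with the pseudocount of 0.1, median scaling, quantile normalization and voom. The remaining alternatives leave it as it is, so they could move only its adjusted p. With each of 8 libraries left out, 7 of 240 member values changed sign. Where the library left out was in neither group compared, the difference stayed as it was and could not change sign. Newly passing were *Ikzf2* after quantile normalization in Th1 against naive (-0.52) and Th17 against naive (-0.99), and *Ikzf4* in Th1 against Th2 (-0.55). The replicate block let *Ikzf4* pass in Th1 against Th2 (-0.46, adjusted p = 0.0348) and changed no other member's call. No longer passing were *Ikzf1* in Th17 against Th2 with median scaling (0.27), *Ikzf1* in Th1 against Th2 with voom on implied fragments (0.44), and *Ikzf4* in Th1 against Th17 with a pseudocount of 0.1 (-0.91) and without a filter (-0.86, adjusted p = 0.107). Sign changes of differences that did not pass were *Ikzf5* in Th1 against Th2 with median scaling (-0.058), quantile normalization (-0.050) and voom (-0.043), and *Ikzf1* in Th1 against Th17 with voom (-0.15). With each library left out, the ranges were -0.34 to 0.15 for *Ikzf2* in Th1 against naive and -0.55 to -0.062 in Th17 against naive, 0.40 to 0.55 for *Ikzf1* in Th1 against Th2, 0.39 to 0.52 in Th17 against Th2 and -0.059 to 0.10 in Th1 against Th17. They were -0.99 to -0.72 for *Ikzf4* in Th1 against Th17, and for *Ikzf5* -0.11 to 0.15 in Th1 against Th2, -0.10 to 0.062 in Th17 against Th2 and -0.095 to 0.17 in Th1 against Th17. The cause of these changes was not tested. For *Ikzf2* in Th2 against naive, the difference was -3.15 to -1.02 over all alternatives, with adjusted p = 9.68e-05 to 0.00615. For the partner and context lists, the number of genes higher or lower was compared under these alternatives. Of 1080 such counts, 943 stayed equal or close to the count of the main fit. Calls of single list genes were not compared. A group left with 1 library borrows its spread from the others. With 2 libraries per group, differences under about the 95% intervals given could not be detected.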

Other observations

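In the naive group, replicate 2 exceeded replicate 1 by 1.67 times for *Ikzf2*, 1.69 times for *Ikzf3*, 1.96 times for *Ikzf4* and 1.92 times for *Foxp3*, against a median of 1.01 times over 10832 genes (quartiles 0.876 and 1.16). *Ikzf1* and *Ikzf5* were at 1.06 and 0.901 times. In the effector groups this ratio was 0.988 to 2.32 for *Ikzf2* and 0.688 to 1.51 for *Ikzf3*. It was 1.00 to 1.33 for *Ikzf4* and 1.28 to 1.90 for *Foxp3* there, so ratios this far from the median were not limited to naive cells. *Lef1* was at 1.65 times in the naive group and at 1.59 to 1.65 times in the effector groups, whereas *Cd4* was at 1.04 to 1.11 times in all 4. The part of library differences in the levels of these genes was not tested.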
